A study of Mus musculus with 24 samples.

Results

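The genes of fatty acid and triglyceride synthesis were followed in AML-12 cells, an established line of mouse hepatocytes, under palmitate and under silencing of *Bmal1* and *Chrebp*. The set is 33 named genes out of 55487 in the table, of which 21543 had at least 1 count. Members were taken by gene name, from a list made with earlier results of these data known. The set holds 7 genes of fatty acid synthesis, 2 regulators, 9 genes of desaturation and elongation, 4 acyl-CoA synthetases and 11 genes of glycerolipid synthesis. In the 8 libraries of the palmitate comparison 30 of the 33 reached the minimum summed count of 25. In the fits that included transfected cells 31 did, and *Acacb* and *Thrsp*, with 4 and 12 counts over all 24 libraries, never did.

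There were 24 libraries in 6 groups of 4, measured by BRB-seq. In this method the transcripts of each sample carry a barcode, are pooled with those of other samples and are read at their 3′ ends. BSA cells received the albumin carrier without palmitate. PAL cells were given the saturated fatty acid palmitate at 0.25 mM for 48 hours, bound to albumin. CON, BMAL1, CHREBP and BOTH cells received the same palmitate and were transfected 24 hours before collection with endoribonuclease-prepared small interfering RNA (esiRNA). The esiRNA was 200 nM against *Egfp* in CON, 100 nM against *Bmal1* in BMAL1, 100 nM against *Chrebp* in CHREBP, and a total of 200 nM against both genes in BOTH. CON and BOTH were therefore matched in esiRNA dose, whereas BMAL1 and CHREBP received a lower dose than CON and BOTH. All groups shared a medium without dexamethasone and with charcoal-treated serum. AML-12 was derived from hepatocytes of a mouse carrying a human TGF-alpha transgene, is a single immortal line, and has no neighbouring liver cell types. The labels give 4 samples a group but do not say whether they were separate cultures, so that p-values measure only the spread between these samples, which may be technical.

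Of 14 hepatocyte markers, 11 averaged 10 normalized counts or more, among them *Alb*, *Afp*, *Ttr*, *Apob*, *Trf*, *Serpina1e*, *Hnf4a*, *Krt8*, *Krt18* and *Fgb*, while *Apoa1*, *Apoa2* and *Ahsg* did not. No fibroblast and stellate marker and no endothelial marker of 10 each reached that mean, and *Cd68* and *Cd14* were the macrophage markers of 10 that did. The libraries held 5399700 to 11237474 gene counts each. The library labelled BOTH replicate 4 stood apart from its group: over the 9380 genes that averaged 50 normalized counts or more, the SD of its log2 difference from the mean of the other 3 libraries was 0.399, against 0.192 to 0.304 in all other libraries. Calls in BOTH are therefore given with and without it. By the well positions in the labels, column 1 held the untransfected groups, column 2 held CON together with BMAL1, and column 3 held both groups with *Chrebp* esiRNA. The *Chrebp* esiRNA cannot be told apart from column 3 in any comparison with CON or BMAL1. Transfection likewise cannot be told apart from column when CON is set against PAL or BSA. Rows A to D held BSA, CON and CHREBP, and rows E to H held PAL, BMAL1 and BOTH. Row therefore cannot be told apart from palmitate in PAL against BSA, from transfection in CON against PAL, or from *Bmal1* esiRNA.

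Hepatocytes build fatty acids from cytosolic acetyl-CoA. ATP citrate lyase (*Acly*) and acetyl-CoA carboxylase (*Acaca*) supply malonyl-CoA, and fatty acid synthase (*Fasn*) uses it with NADPH to make palmitate. Stearoyl-CoA desaturases (*Scd1*, *Scd2*) put a first double bond into saturated acyl-CoA, elongases add carbon units, and the fatty acid desaturases *Fads1* and *Fads2* act on polyunsaturated chains. Acyl-CoA synthetases activate free fatty acids, and acyltransferases, lipins and diacylglycerol acyltransferases (*Dgat1*, *Dgat2*) attach them to glycerol. SREBP-1c, encoded by *Srebf1*, and CHREBP, encoded by *Mlxipl*, are transcription factors known for driving these genes in response to insulin and to carbohydrate.

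Promoters are shown for some of the genes called with palmitate that have a window in the table: *Fads2*, *Elovl6* and *Acsl3*, which were higher with palmitate, and for *Fasn*, for which no such difference was called. Each window runs from 250 bases before to 50 bases after the annotated start and is printed 5′ to 3′ on the strand of the gene, from RefSeq on GRCm38.p6. Capitals mark CCAAT or its complement ATTGG, the core motif of nuclear factor Y, a partner of SREBP on lipogenic promoters.
*Fads2* (chr19:10101454-10101753, minus strand): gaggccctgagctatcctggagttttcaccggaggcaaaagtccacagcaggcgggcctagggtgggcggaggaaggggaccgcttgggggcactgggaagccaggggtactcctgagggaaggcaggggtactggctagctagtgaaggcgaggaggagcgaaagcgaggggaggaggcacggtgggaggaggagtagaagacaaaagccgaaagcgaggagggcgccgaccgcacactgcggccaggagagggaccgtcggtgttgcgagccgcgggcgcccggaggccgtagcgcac
*Elovl6* (chr3:129532136-129532435, plus strand): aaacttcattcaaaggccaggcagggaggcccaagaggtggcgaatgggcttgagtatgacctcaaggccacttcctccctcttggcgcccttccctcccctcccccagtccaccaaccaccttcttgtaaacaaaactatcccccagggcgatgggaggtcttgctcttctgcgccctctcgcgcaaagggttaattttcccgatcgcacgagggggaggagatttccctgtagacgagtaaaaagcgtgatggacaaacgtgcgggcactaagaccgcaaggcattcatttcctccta
*Acsl3* (chr1:78657575-78657874, plus strand): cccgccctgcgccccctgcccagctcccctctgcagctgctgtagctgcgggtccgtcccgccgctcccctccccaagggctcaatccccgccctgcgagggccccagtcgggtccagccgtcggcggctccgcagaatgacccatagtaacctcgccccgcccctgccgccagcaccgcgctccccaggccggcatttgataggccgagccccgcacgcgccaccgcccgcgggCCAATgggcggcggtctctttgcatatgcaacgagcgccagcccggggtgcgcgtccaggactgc
*Fasn* (chr11:120824498-120824797, minus strand): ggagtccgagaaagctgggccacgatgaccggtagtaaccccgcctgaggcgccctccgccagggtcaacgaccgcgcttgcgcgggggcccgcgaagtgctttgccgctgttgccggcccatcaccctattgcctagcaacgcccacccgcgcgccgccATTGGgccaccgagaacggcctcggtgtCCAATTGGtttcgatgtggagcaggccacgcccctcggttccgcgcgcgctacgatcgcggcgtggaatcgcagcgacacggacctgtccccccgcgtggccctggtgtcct
The windows of *Fads2* and *Elovl6* held no match, that of *Acsl3* held 1 and that of *Fasn* held 3. Among other members called with palmitate, *Hsd17b12* held 2 matches, 1 of the *Me1* windows held 1, 1 of the *Acsl1* windows held 2, 1 of the *Lpin2* windows held 3 and *Acsl4* held none, so that the windows shown do not represent all called members. Windows were found for 26 of the 33 members, 35 in all, and not for *Scd1*, *Scd2*, *Fads1*, *Gpat4*, *Mogat2*, *Dgat1* and *Dgat2*. On either strand, CCAAT was in 17 of these 35, against 37.4% of all 32851 promoter windows of the same length. The SREBP motif TCACNCCAC was in 1 of the 35, an *Acsl1* window, against 1.24% of all windows, and the E-box CACGTG, the core that BMAL1 and CHREBP can bind, was in those of 4 members (*Elovl5*, *Lpin2*, *Lpin3* and *Slc25a1*) against 7.15%. None of the 3 motifs contains another. A match describes letters in this window only.

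Palmitate against the carrier, the comparison that asked what fatty acid loading did to expression, raised desaturation and elongation genes, 6 of 9, and lowered none of them. The largest rise was that of *Fads2*, at 62.5% above BSA. The acyltransferases *Mogat2* and *Dgat2*, late in triglyceride synthesis, fell. *Dgat2* fell by 48.6%. *Fasn*, *Acly* and *Acaca* did not pass the test. Of the 30 members fitted, 13 passed at an adjusted p under 0.1, 8 higher and 5 lower in PAL. Over all 12827 genes tested, 14.3% were called, 6.65% higher and 7.6% lower. The median log2 fold change of the members was -0.016, against 0.0048 over all genes. In these bulk samples, less RNA per cell and fewer cells of one kind cannot be told apart.

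In fatty acid synthesis, 1 of 6 fitted genes rose. This was malic enzyme *Me1*, which yields NADPH, at a log2 fold change of 0.31 (SE 0.055, adjusted p = 1.29e-06), with BSA at 2658 to 2992 and PAL at 3419 to 3679 normalized counts. *Fasn* was at 2919.6, 3104, 2531 and 2821 normalized counts in BSA and at 2808, 2621, 2537 and 2858 in PAL. These groups overlapped, and the log2 fold change was -0.065 with a 95% interval of -0.20 to 0.067 (adjusted p = 0.657). *Acly* (0.023, interval -0.10 to 0.14), *Acaca* (-0.12), the citrate carrier *Slc25a1* (-0.11) and the acetyl-CoA synthetase *Acss2* (-0.46) were not called on the log2 scale either. *Acss2* rested on 7.83 to 25.1 normalized counts in PAL. At the annotated 3′ ends of *Acaca*, 22.4% of the 50-base words also occur in Gm5182, so that its count is uncertain.

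*Srebf1* stood at 806, 809, 661 and 829 normalized counts in BSA and at 935, 874, 881 and 846 in PAL. Every PAL library was above every BSA library, yet the difference missed the threshold, at a log2 fold change of 0.19 (SE 0.081, adjusted p = 0.107). The lowest BSA library, replicate 3, was well below the other 3.

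All 4 desaturases of the set rose. *Scd2*, at chr19:44293674-44306864 on the plus strand, was at 5992, 5728, 5808 and 5826 normalized counts in BSA and 8099, 7886, 7420.1 and 8176 in PAL. The replicates lay close together and the groups were far apart, with a log2 fold change of 0.44 (SE 0.049, adjusted p = 3.91e-17). *Scd1*, its neighbour at chr19:44394455-44407879 on the minus strand, was at 144, 132, 121 and 105 in BSA and 189, 187, 145 and 148 in PAL. These groups nearly touched, with a log2 fold change of 0.41 (SE 0.15, adjusted p = 0.0598). The call was lost when any of 5 single libraries was left out (BSA replicate 2, 3 or 4, or PAL replicate 1 or 2, adjusted p between 0.108 and 0.208). It was also lost with replicate number as a block (adjusted p = 0.132). The annotated 3′ ends of *Scd1* and *Scd2* shared no 50-base word with any other gene.

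*Fads1*, the delta-5 desaturase, rose from 1706, 1741, 1670.0 and 1775 normalized counts in BSA to 2437, 2088, 2389.5 and 2156 in PAL, with a log2 fold change of 0.40 (SE 0.064, adjusted p = 1.73e-08). *Fads2*, the delta-6 desaturase, rose from 536, 614, 674 and 581 to 1040.3, 865, 1054 and 939, with a log2 fold change of 0.70 (SE 0.088, adjusted p = 2.42e-13). In both genes the lowest PAL library was above the highest BSA library, and *Fads2* had the largest log2 fold change among the members that rose.

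Of the elongation genes, *Elovl6* and *Hsd17b12* rose. *Elovl6*, which lengthens palmitate to stearate, was at 194, 153, 199 and 163 normalized counts in BSA and at 268, 251, 246 and 266 in PAL, with a log2 fold change of 0.54 (SE 0.12, adjusted p = 3.14e-04). *Hsd17b12*, the ketoacyl-CoA reductase of the elongation cycle, was at 864, 861, 934 and 939 in BSA and at 1221, 1142, 1092 and 1088 in PAL, with a log2 fold change of 0.34 (SE 0.07, adjusted p = 3.27e-05). Neither gene had overlapping groups. *Elovl1* (0.07), *Elovl5* (0.066) and *Elovl7* (-0.07) had log2 fold changes near 0 and were not called. *Elovl7*, an elongase of saturated chains, was at 474, 514, 488 and 539 in BSA and 469, 503, 512 and 427 in PAL. At the 3′ ends of *Elovl6*, 8.73% of the 50-base words also occur in Gm11295, so that its count is uncertain as well.

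The acyl-CoA synthetases moved in both directions. *Acsl3*, an isoform of the endoplasmic reticulum and lipid droplets, rose from 290.3, 251, 321 and 339.5 to 496, 332, 344 and 393 normalized counts, with a log2 fold change of 0.39 (SE 0.13, adjusted p = 0.0249). Its groups overlapped, with PAL replicate 1 above the rest, and the call was lost without that library (adjusted p = 0.183) or without BSA replicate 2 (adjusted p = 0.156). *Acsl1*, a main isoform of liver, fell from 139.6, 164, 134 and 143 to 99.0, 86.5, 96.2 and 102, with a log2 fold change of -0.59 (SE 0.15, adjusted p = 0.00234). *Acsl4*, which prefers arachidonate, fell from 2215, 1812, 2402 and 2317 to 1707, 1583, 1846 and 1819, with a log2 fold change of -0.32 (SE 0.081, adjusted p = 0.00142). The *Acsl1* groups were apart, whereas BSA replicate 2 placed the *Acsl4* groups in overlap. *Acsl5* differed by 0.13 (adjusted p = 0.255) with groups that did not overlap.

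In glycerolipid synthesis no member rose and 3 of 10 fitted fell. *Dgat2*, which adds the last acyl chain of triglyceride and lies at chr7:99153658-99182719 on the minus strand, was at 287, 275, 307 and 273 normalized counts in BSA and 169, 129, 142 and 148 in PAL. All PAL libraries were well below all BSA libraries, with a log2 fold change of -0.96 (SE 0.12, adjusted p = 7.32e-13). *Lpin2*, a phosphatidate phosphatase, was at 224, 205, 227 and 231 in BSA and at 129, 188, 163 and 166 in PAL, with a log2 fold change of -0.44 (SE 0.13, adjusted p = 0.0111) and no overlap. *Mogat2*, a monoacylglycerol acyltransferase, was low, at 18.8, 30.9, 18.9 and 38.2 in BSA and at 11.9, 16.1, 10.1 and 10.9 in PAL, with a log2 fold change of -1.10 (SE 0.40, adjusted p = 0.0501). The *Mogat2* call was lost when BSA replicate 2 or 4 or PAL replicate 3 or 4 was left out (adjusted p between 0.140 and 0.217). It was also lost with replicate number as a block (adjusted p = 0.170). The acyltransferases *Gpam* (-0.058), *Gpat4* (0.00536), *Agpat2* (-0.18) and *Agpat3* (0.17), the lipins *Lpin1* (-0.049) and *Lpin3* (-0.038), and *Dgat1* (-0.28) did not pass on the log2 scale. *Gpat3* was at 0 to 5.14 normalized counts in these libraries and was not fitted.

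**Figure D1:**
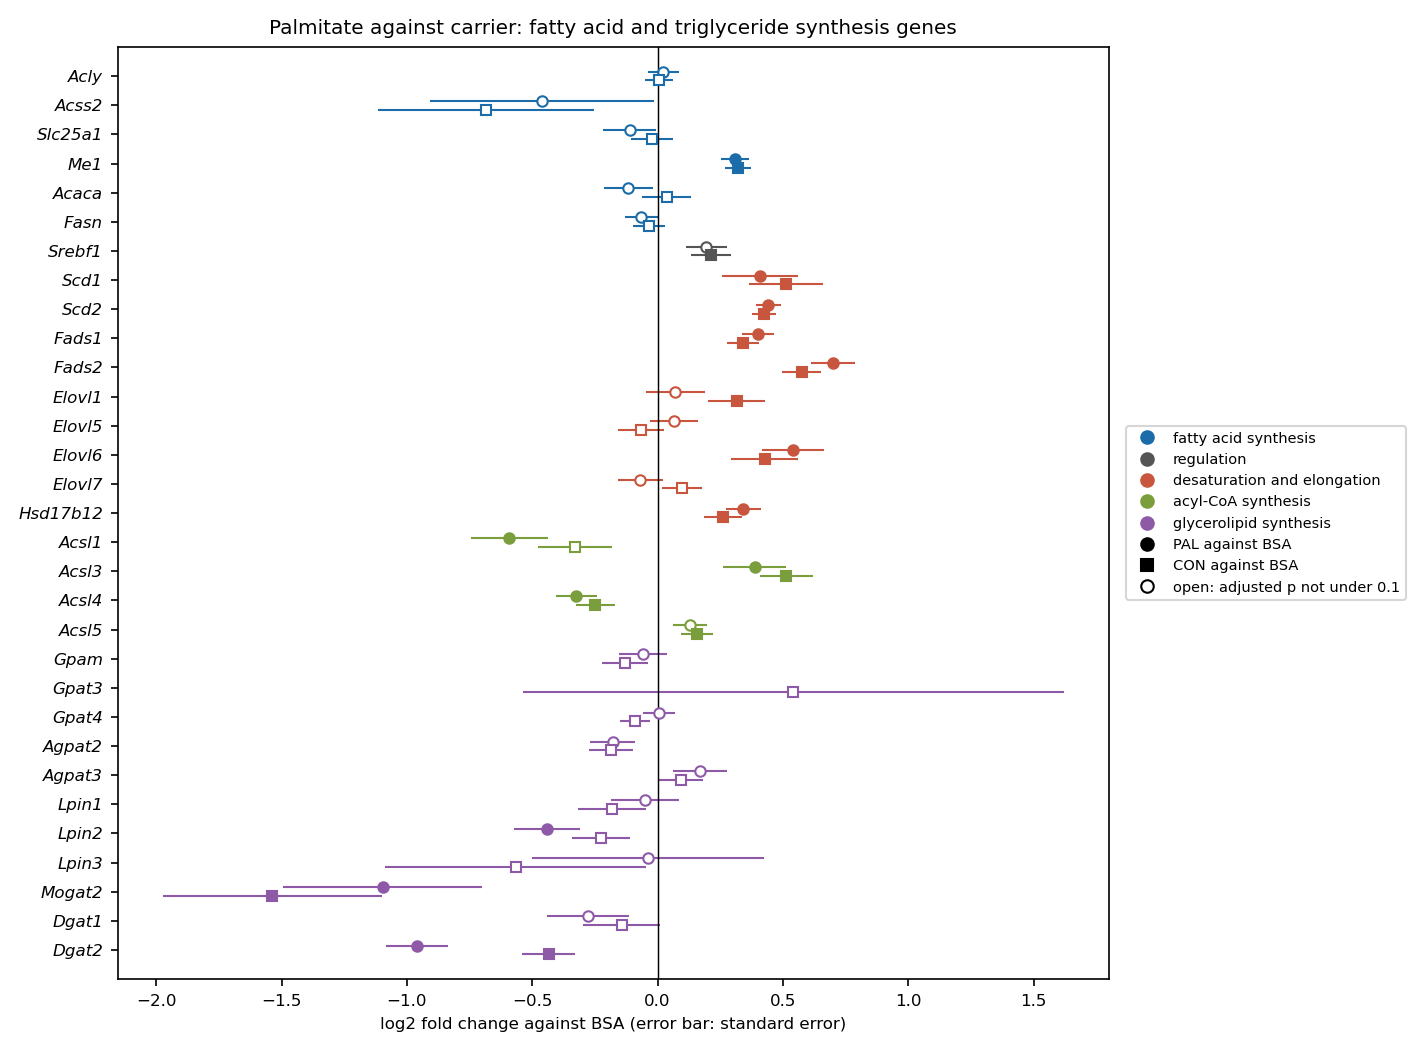
Log2 fold change against BSA (horizontal axis) for the 31 fitted members, grouped by colour into roles, for PAL (circles) and CON (squares), with standard errors and open symbols where the adjusted p was not under 0.1. Desaturation and elongation genes lie mostly to the right of 0, up to 0.70 for *Fads2*, and *Dgat2* and *Mogat2* lie to the left.

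CON cells, which had palmitate and the control esiRNA, were also compared with BSA. Both comparisons use the same 4 BSA libraries, so that their values stand side by side and neither is support for the other. Of 31 members fitted, 14 were called, 11 higher and 3 lower in CON, against 15% of 12996 genes, 7.31% higher and 7.64% lower. The median log2 fold change was 0.00476 over the members and 0.00398 over all genes. *Scd2* (0.42 on the log2 scale), *Fads1* (0.34), *Fads2* (0.57), *Elovl6* (0.43), *Hsd17b12* (0.26), *Scd1* (0.51), *Acsl3* (0.51) and *Me1* (0.32) were higher in CON too. *Mogat2* (-1.54), *Dgat2* (-0.43) and *Acsl4* (-0.25) were lower. *Srebf1* (0.21, adjusted p = 0.0621), *Elovl1* (0.32, adjusted p = 0.0479) and *Acsl5* (0.16, adjusted p = 0.0984) were called here and not in PAL, and *Acsl1* (-0.33) and *Lpin2* (-0.23) were called in PAL and not here. The calls of *Srebf1* and *Elovl1* were lost without BSA replicate 3 (adjusted p = 0.266 and 0.249). Without CON replicate 2 or 3 *Srebf1* was at 0.183 and 0.265, and without CON replicate 1, 3 or 4 *Elovl1* was between 0.129 and 0.151. The *Acsl5* call was lost without BSA replicate 1 or 2 or any of the 4 CON libraries (adjusted p between 0.140 and 0.401), and that of *Elovl6* without BSA replicate 2 (adjusted p = 0.109) or CON replicate 2 (adjusted p = 0.161).

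Tested directly, CON and PAL differed in 1 of 31 members, *Dgat2*, against 2.51% of 12928 genes. CON libraries were at 206, 198, 224 and 218 normalized counts of *Dgat2*, above every PAL library and below every BSA library, and the difference from PAL was a log2 fold change of 0.53 (SE 0.13, adjusted p = 0.00320). Without CON replicate 2, 2 members were called, *Elovl1* being the other (log2 fold change 0.31, adjusted p = 0.0733). The interferon response genes, a list of 20, moved with the same contrast. Of 18 fitted, 17 were higher in CON than in PAL, *Mx2* and *Ifit1* by the largest log2 fold changes (7.72 and 6.25), and their summed level was 811 to 878 normalized counts in PAL and 1623 to 9638 in CON. Their part in the *Dgat2* difference was not tested.

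**Figure D2:**
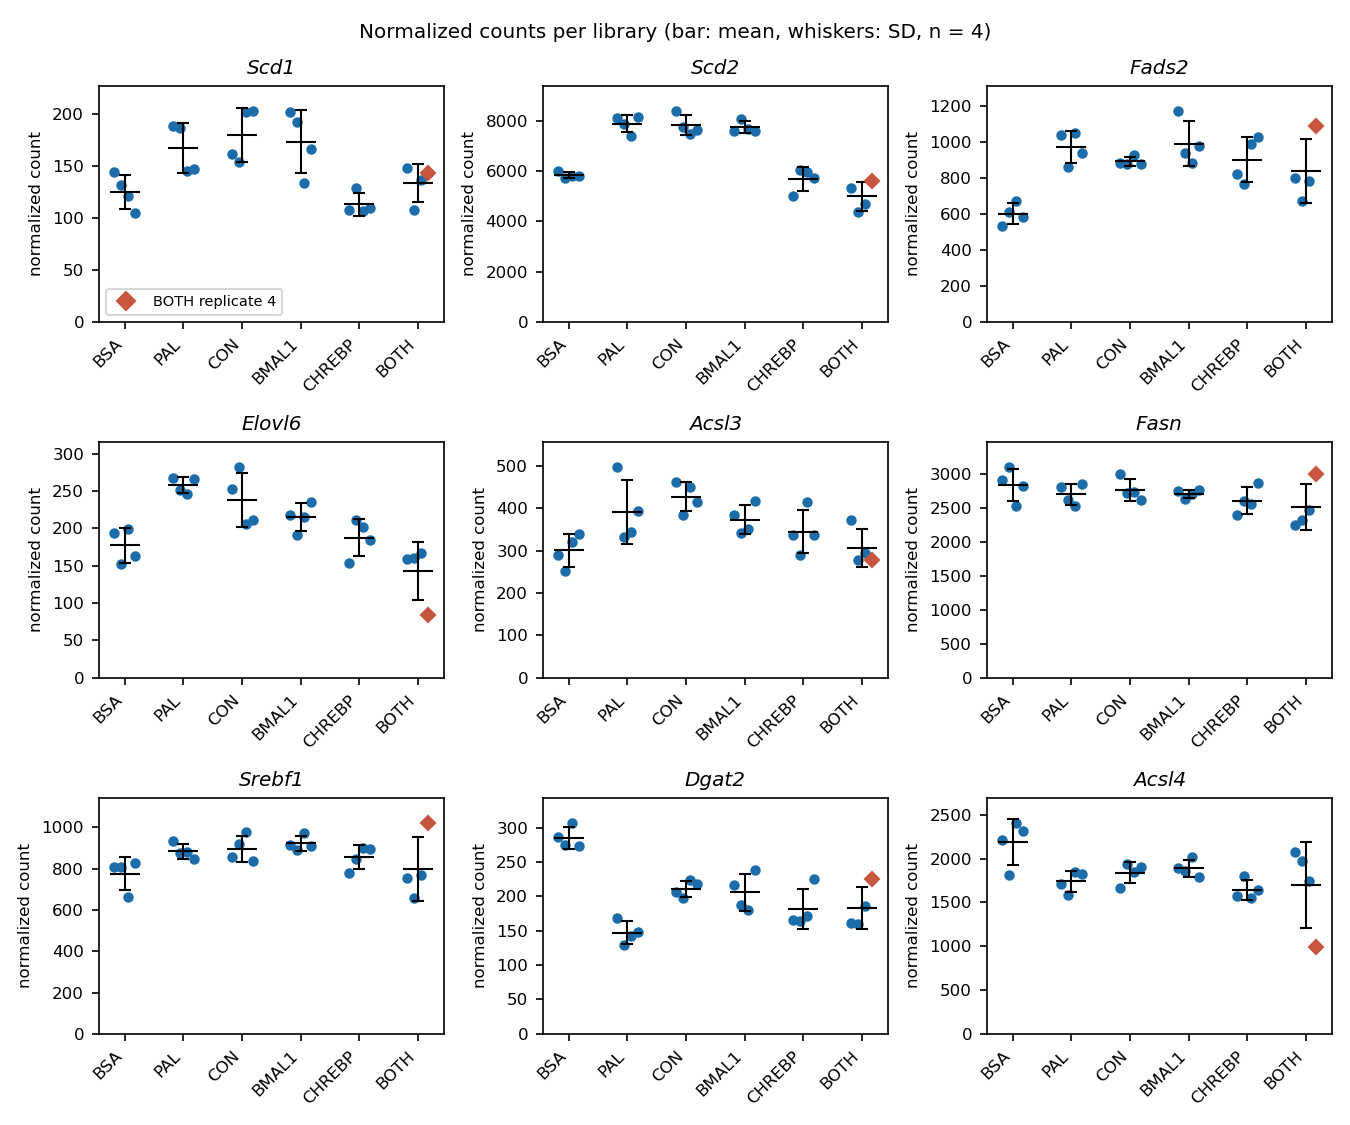
Normalized counts (vertical axis, starting at 0) of 9 members in every library of the 6 groups, with the mean and SD over 4 libraries; BOTH replicate 4 is drawn as a diamond. *Scd2* is at 5027 to 6066 in CHREBP and 4355 to 5613 in BOTH, below the 7472 to 8385 of CON, and the diamond is the lowest of its group for *Elovl6* and *Acsl4* and the highest of its group for *Fasn*, *Srebf1* and *Dgat2*.

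In the silencing experiment the targeted genes were read first. *Mlxipl*, the *Chrebp* gene, was at 38.6, 30.3, 44.4 and 29.0 normalized counts in CON, 23.3, 32.7, 22.1 and 25.5 in CHREBP and 14.4, 20.3, 21.9 and 11.5 in BOTH. It fell in BOTH, with a log2 fold change of -1.07 (SE 0.30, adjusted p = 0.00762), while CHREBP overlapped CON, at a log2 fold change of -0.46 (SE 0.28, adjusted p = 0.593). *Arntl*, the *Bmal1* gene, was at 57.5, 49.2, 41.9 and 30.1 in CON, 23.1, 22.3, 25.9 and 32.9 in BMAL1 and 16.6, 30.9, 25.4 and 18.2 in BOTH. It fell in BOTH, with a log2 fold change of -0.98 (SE 0.28, adjusted p = 0.00994). With BOTH replicate 4 left out, *Mlxipl* had a log2 fold change of -0.92 (SE 0.32, adjusted p = 0.0449) and *Arntl* had a log2 fold change of -0.88 (SE 0.30, adjusted p = 0.0413). In BMAL1 the log2 fold change of *Arntl* was -0.78, with no adjusted p because its mean count was under the independent filter. *Mlxipl* was also lower in PAL than in BSA (-0.86).

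The *Bmal1* esiRNA alone called none of the 31 fitted members in DESeq2, and none in edgeR. The lowest adjusted p was 0.442, and 1 member had an unadjusted p under 0.05, *Acsl5* at a log2 fold change of -0.15. Over all 13883 genes tested 0.49% were called. The median log2 fold change was -0.031 over the members and -0.00496 over all genes, and 4 low members had no adjusted p. *Fasn* was at 2999, 2728, 2737 and 2625 normalized counts in CON and 2757, 2631, 2705 and 2764 in BMAL1, a log2 fold change of -0.031 with an interval of -0.19 to 0.13. *Srebf1* was at 855, 917, 976 and 836 in CON and 914, 889, 973 and 911 in BMAL1, a log2 fold change of 0.04 (-0.16 to 0.24). The intervals are per gene and unadjusted, and show the range of changes that these values allow. A missed threshold does not show equal levels.

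With *Chrebp* esiRNA, both stearoyl-CoA desaturases fell and no other member was called in the 16 libraries, 2 of 31 against 3.42% of all genes and 0.771% called lower. The median log2 fold change was -0.083 over the members and -0.00365 over all genes. *Scd2* was at 8385, 7773, 7472 and 7655 normalized counts in CON, 7586, 8089.6, 7698 and 7594 in BMAL1 and 5027, 6066, 5971 and 5729 in CHREBP. Every CHREBP library was below every CON and BMAL1 library, and against CON *Scd2* fell by 27.2%, with a log2 fold change of -0.46 (SE 0.077, adjusted p = 6.30e-07). *Scd1* was at 162, 154, 202 and 203 in CON, 202, 192, 134 and 166 in BMAL1 and 107, 129, 106 and 109.6 in CHREBP. It fell by 36.9%, with a log2 fold change of -0.67 (SE 0.15, adjusted p = 0.00106), and CHREBP did not overlap CON. *Fasn* was at 2397, 2606, 2559 and 2875 in CHREBP, a log2 fold change of -0.09 (-0.25 to 0.069), and *Srebf1* at 777, 849, 899 and 897, with -0.069 (-0.27 to 0.13). Both overlapped CON.

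The double silencing lowered 6 members, *Scd1*, *Scd2*, *Fads1*, *Elovl6*, *Elovl7* and *Acsl3*. In BOTH against CON, matched in dose, 6 of 31 members fell and none rose, against 9.73% of all genes called and 3.75% called lower, with 5 of the 6 in desaturation and elongation. The median log2 fold change was -0.041 over the members and -0.012 over all genes. Fatty acid synthesis and glycerolipid synthesis genes were not called in any esiRNA comparison over all libraries, and those of glycerolipid synthesis ran from -0.21 to 0.43 in BOTH. The latter range, without BOTH replicate 4, was -1.01 to 0.38, with *Mogat2* at the low end, where it had been at -0.041. *Scd2* was at 5328, 4355, 4684 and 5613 normalized counts in BOTH, with a log2 fold change of -0.65 (SE 0.078, adjusted p = 9.41e-15). *Elovl6* was at 252, 282, 206 and 211 in CON, 219, 191, 215 and 236 in BMAL1, 154, 211, 203 and 184 in CHREBP and 159, 160.0, 167 and 84.5 in BOTH, with a log2 fold change of -0.75 (SE 0.17, adjusted p = 2.82e-04). All BOTH libraries were below all CON libraries for both genes, and BOTH replicate 4 was far below the other 3 for *Elovl6*. Without that library, *Elovl6* had a log2 fold change of -0.56 (SE 0.14, adjusted p = 0.00132) and *Scd2* had a log2 fold change of -0.71 (SE 0.073, adjusted p = 7.79e-20).

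*Acsl3* was at 461, 384, 449 and 414 normalized counts in CON, 383, 341, 350.5 and 416 in BMAL1, 338, 290.1, 414 and 337 in CHREBP and 373, 278, 295 and 278 in BOTH. It fell in BOTH, with a log2 fold change of -0.48 (SE 0.12, adjusted p = 0.00133), and no BOTH library reached the lowest CON library. Without BOTH replicate 4 its log2 fold change was -0.44. *Scd1* was at 148, 108, 136 and 143 in BOTH, with a log2 fold change of -0.43 (SE 0.15, adjusted p = 0.0597), and this call was lost without CON replicate 3 or 4 or BOTH replicate 2 (adjusted p between 0.196 and 0.225).

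*Fads1* and *Elovl7* passed by less. *Fads1* was at 2444, 2075, 2153 and 2025 normalized counts in CON, 1960.3, 2077, 1941 and 2217 in BMAL1, 1923, 1819.7, 1955 and 1974 in CHREBP and 2002, 1625, 1899 and 2011 in BOTH, with a log2 fold change of -0.21 (SE 0.078, adjusted p = 0.0771) for BOTH. *Elovl7* was at 509, 544, 559 and 534 in CON, 469.7, 509, 502 and 502 in BMAL1, 502, 387, 455 and 465 in CHREBP and 458, 406, 452 and 509 in BOTH, with a log2 fold change of -0.24 (SE 0.09, adjusted p = 0.0835). Neither was called by edgeR (adjusted p = 0.103 and 0.110, respectively). With replicate number as a block in DESeq2, the *Elovl7* call was also lost (adjusted p = 0.104). The *Fads1* call was lost without CON replicate 1 or 3 or BOTH replicate 2 or 3 (adjusted p between 0.129 and 0.307), and the *Elovl7* call without CON replicate 2, 3 or 4 or BOTH replicate 1, 2 or 3 (between 0.117 and 0.269). Without BOTH replicate 4 all these calls held, at log2 fold changes of -0.47 for *Scd1*, -0.24 for *Fads1* and -0.30 for *Elovl7*.

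*Fasn* was at 2250.0, 2328, 2474 and 3003 normalized counts in BOTH, with a log2 fold change of -0.14 (SE 0.081, adjusted p = 0.352), and *Srebf1* at 752, 656, 768 and 1019.6, with a log2 fold change of -0.17 (SE 0.10, adjusted p = 0.405). In both genes BOTH replicate 4 was the highest of its group and the other 3 lay below every CON library. Without it both fell, *Fasn* with a log2 fold change of -0.24 (SE 0.065, adjusted p = 0.00418) and *Srebf1* with a log2 fold change of -0.31 (SE 0.081, adjusted p = 0.00253). BOTH replicate 4 was the highest of its 4 libraries for 15 of the 27 members with a mean of at least 50 normalized counts, and BOTH replicate 2 was the lowest for 17. Other groups held such libraries too: PAL replicate 1 was the highest of its group for 16 of the 27, CHREBP replicate 4 was the highest for 14 and CHREBP replicate 2 the lowest for 15. Without BOTH replicate 4, 11 of 31 members were called, 10 lower and 1 higher, against 11.3% of all genes called and 4.66% called lower. The median log2 fold change of the members was -0.22, against -0.00191 over all genes. The additional ones were *Fasn*, *Srebf1*, *Slc25a1*, *Acsl1* and *Lpin2*. *Slc25a1* had a log2 fold change of -0.38 (SE 0.11, adjusted p = 0.00630), and *Acsl1* had a log2 fold change of -0.50 (SE 0.18, adjusted p = 0.0457). *Lpin2* was higher, with a log2 fold change of 0.38 (SE 0.15, adjusted p = 0.0934). Leaving out CON replicate 3 or BOTH replicate 2 instead gave 3 calls each, and no share of all genes is given for these fits.

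Of the members called with palmitate and not in an esiRNA group over all libraries, *Me1* ranged from 3470 to 3652 normalized counts in CON, and its lowest and highest values were 3247 and 3447 in BMAL1, 3115 and 3451 in CHREBP, and 3225 and 3756 in BOTH. Every BMAL1 and CHREBP library was below every CON library, but neither difference passed the test (DESeq2 adjusted p = 0.776 and 0.451). *Fads2* was at 883, 881, 932 and 879.9 normalized counts in CON, 1173, 939, 882 and 977 in BMAL1, 824, 770.4, 989.6 and 1030.0 in CHREBP and 803, 675, 785 and 1094 in BOTH. All of these were above the BSA range, BOTH replicate 2 by the least. *Hsd17b12* was at 990.2, 1144, 1192 and 963 in CON, 909.6, 1069, 982 and 922 in BMAL1, 1264, 1009.7, 1094 and 1089 in CHREBP and 1039.8, 1008, 1086 and 1231 in BOTH. The esiRNA groups overlapped CON for *Fads2* and *Hsd17b12*.

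*Dgat2* was at 217, 188, 181 and 238 normalized counts in BMAL1, 166, 164, 172 and 225 in CHREBP and 162, 160.0, 186 and 226 in BOTH, and replicate 4 was the highest of each of these groups. Every transfected library was below every BSA library. *Lpin2* was at 183, 199, 179 and 195 in CON, 162, 226, 176 and 224 in BMAL1, 256, 237, 176 and 166 in CHREBP and 225, 277, 237 and 177 in BOTH, so that some silenced libraries stood as high as BSA. *Mogat2* was at 5.39, 12.1, 13.98 and 3.48 in CON, 14.9, 21.2, 10.5 and 19.2 in BMAL1, 8.86, 10.3, 7.66 and 3.32 in CHREBP and 3.32, 4.42, 5.77 and 21.1 in BOTH. These groups overlapped CON, and BOTH replicate 4 was far above the other 3 BOTH libraries.

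*Acsl1* was at 97.0, 113, 118 and 136 normalized counts in CON, 115, 106, 139.8 and 103 in BMAL1, 90.8, 101, 91.9 and 119.6 in CHREBP and 91.8, 71.6, 82.0 and 112 in BOTH. In BOTH the 3 first replicates were below every CON library, and replicate 4 was not. *Acsl4* was at 1669, 1933, 1848 and 1899 in CON, 1891, 1856, 2021 and 1791 in BMAL1, 1571, 1798, 1544 and 1646 in CHREBP and 2077, 1976, 1738 and 993 in BOTH. For *Acsl4*, BOTH replicate 4 was by far the lowest of all 24 libraries, while the other 3 BOTH libraries overlapped CON.

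**Figure D3:**
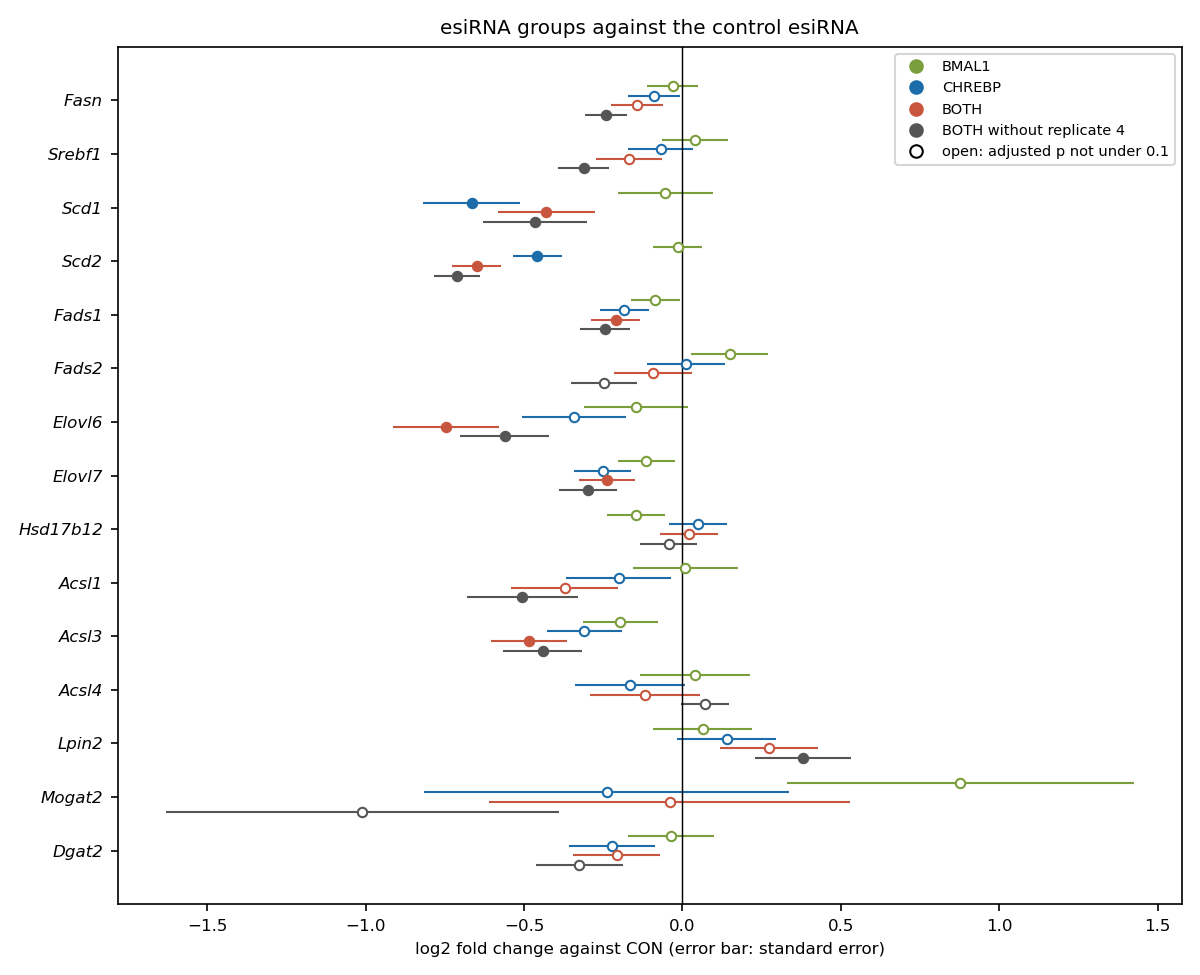
Log2 fold change against CON (horizontal axis) for the 15 members whose value is given in every library, for BMAL1, CHREBP, BOTH and BOTH without replicate 4, with standard errors and open symbols where the adjusted p was not under 0.1. *Scd1* and *Scd2* are filled in CHREBP and BOTH, no symbol is filled in BMAL1, and *Fasn*, *Srebf1*, *Acsl1* and *Lpin2* are filled only without BOTH replicate 4.

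The esiRNA groups were also set against each other. BOTH received more esiRNA in total than CHREBP or BMAL1, so that dose cannot be told apart from the added esiRNA. BOTH against CHREBP, which asked what *Bmal1* esiRNA added, called none of the 31 fitted members in DESeq2 or edgeR, against 0.994% of all genes. The lowest adjusted p was 0.347 and 3 members had an unadjusted p under 0.05: *Scd2* (-0.19 on the log2 scale), *Elovl6* (-0.40) and *Gpat4* (0.15). Without BOTH replicate 4, *Slc25a1*, *Srebf1*, *Scd2* and *Acsl4* were called, 3 lower and 1 higher (*Acsl4*), against 1.61% of all genes, and without CHREBP replicate 1 *Scd2* was called (log2 fold change -0.25, adjusted p = 0.0824). BOTH against BMAL1, which asked what *Chrebp* esiRNA added, called 2 of 31 members, both lower, against 10.4% of all genes and 4.08% called lower. They were *Scd2*, with a log2 fold change of -0.63 (SE 0.078, adjusted p = 2.43e-14), and *Elovl6*, with a log2 fold change of -0.60 (SE 0.17, adjusted p = 0.00763). Without BOTH replicate 4, 8 of 31 were called, all lower, against 12.4% of all genes called and 5.37% called lower. On the log2 scale these were *Scd2* (-0.69), *Elovl6* (-0.41), *Scd1* (-0.41), *Acsl1* (-0.51), *Srebf1* (-0.35), *Fads2* (-0.40), *Fasn* (-0.21) and *Mogat2* (-1.88). Without BOTH replicate 1, 4 were called, with *Acsl3* and *Scd1* added, and no share of all genes is given for that fit. CHREBP and BOTH share no library, but each was also compared with the same CON libraries, and their values against CON are not independent.

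The interaction term, which asked whether the double silencing differed from the sum of the single ones on the log2 scale, called no member in DESeq2 or edgeR, against 1.47% of all genes. The lowest adjusted p was 0.428, and *Me1* (0.19) and *Acsl5* (0.18) had an unadjusted p under 0.05. The interaction term also called none without BOTH replicate 4. CON and BOTH received more esiRNA than BMAL1 and CHREBP, so that an effect of dose does not cancel in this term. Dose and interaction therefore cannot be told apart here. The likelihood ratio test for any difference among the 4 esiRNA groups called 4 of 31 members, *Scd2* (adjusted p = 2.80e-20), *Scd1* (4.62e-04), *Elovl6* (0.00183) and *Acsl3* (0.0101), against 9.92% of all genes. Without BOTH replicate 4 it called 12 of 31 members, against 12.1% of all genes. The added members were *Slc25a1*, *Fads1*, *Srebf1*, *Elovl7*, *Fads2*, *Fasn*, *Acsl4* and *Mogat2*.

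The interferon response genes moved with *Chrebp* esiRNA as well. All 20 were higher in CHREBP and in BOTH than in CON, with medians of 2.54 and 3.26, led by *Oas3* (3.94 and 4.87 on the log2 scale) and *Rsad2* (3.60 and 4.70), and 11 of 20 were lower in BMAL1. Over all genes 3.42%, 9.73% and 0.49% were called in these comparisons. All 20 were also higher in BOTH than in CON without BOTH replicate 4, with a median of 3.34. In PAL against BSA 2 of 15 fitted were lower (*Ifit1* -0.90, *Stat2* -0.34). Their summed level was 26443 to 54264 normalized counts in CHREBP, 50433 to 80712 in BOTH, 1782 to 2507 in BMAL1 and 1623 to 9638 in CON. Their part in the changes of the desaturases, *Elovl6* and *Acsl3* was not tested. Hepatocyte markers summed to 54210 to 56096 in CON, 50853 to 57163 in CHREBP and 50364 to 56743 in BOTH, and 2 of 14, *Trf* and *Hnf4a*, were lower in BOTH, with and without its replicate 4.

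**Figure D4:**
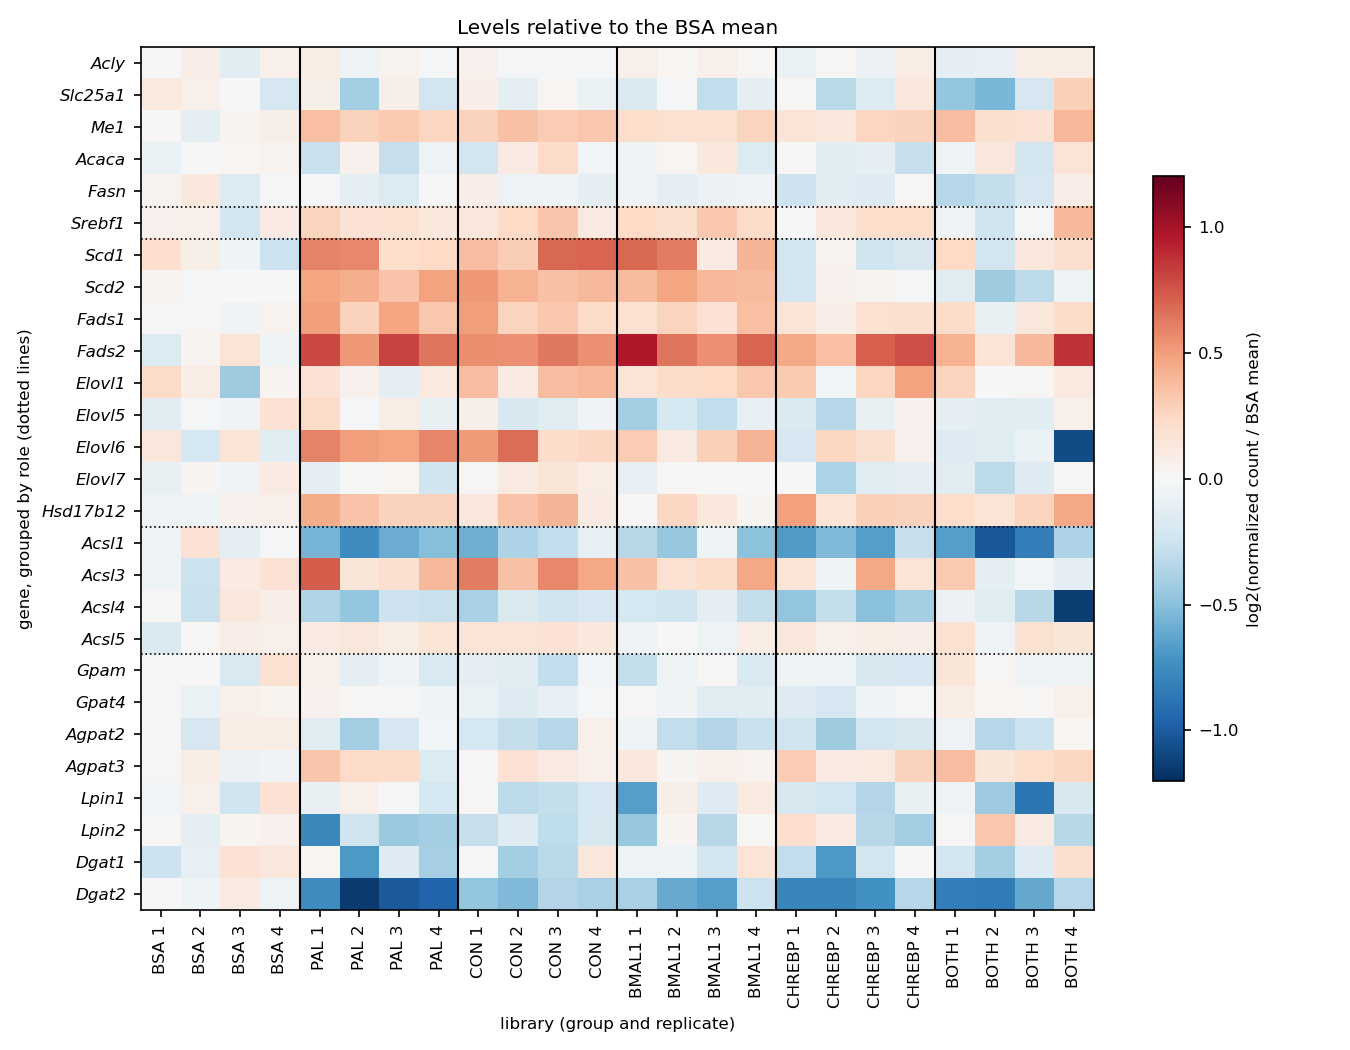
Log2 ratio of each library's normalized count to the BSA mean (colour, from -1.2 to 1.2) for the 27 members with a mean of at least 50 normalized counts (rows, by role) in the 24 libraries (columns, by group). The desaturase rows are mostly red across PAL, CON and BMAL1, *Scd1* and *Scd2* are paler or blue in CHREBP and BOTH, the *Dgat2* row is blue outside BSA, and BOTH replicate 4 differs from its neighbours in *Elovl6* and *Acsl4*.

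Genes around the pathway were read from lists. Of 24 regulators of lipogenesis, 1 rose with palmitate (*Srebf2*, 0.18 on the log2 scale) and 3 fell, led by *Mlxipl* (-0.86) and *Xbp1* (-0.49), a factor of the unfolded protein response. Over all genes 6.65% were called higher and 7.6% lower in this comparison. The median was -0.091, against 0.0048 over all genes. In CON against BSA 4 fell, against 7.64% of all genes, in BOTH against BMAL1 1 fell (*Mlxipl* -1.04), against 4.08%, and none was called in BMAL1 or CHREBP. In BOTH against CON 2 rose (*Akt2* 0.42, *Mlxip* 0.40) and 2 fell (*Mlxipl* -1.07, *Mbtps2* -0.32), against 9.73% of all genes called and 3.75% called lower. *Mbtps2* was no longer called without BOTH replicate 4, while the other 3 were, as was *Mlxipl* against BMAL1. Of 38 other fatty acid and glycerolipid genes, 25 were fitted in the palmitate comparison. Of these, 1 rose, *Acsbg1* (0.93), an acyl-CoA synthetase, and 6 fell, led by *Agpat4* (-0.54) and the fatty acid transporter *Slc27a1* (-0.50), with a median of -0.095. In CHREBP 3 of the 25 fell, against 0.771% of all genes, among them *Acsbg1* (-0.51) and the acyl-CoA binding protein *Dbi* (-0.27). In BOTH 4 fell, against 3.75%, with *Acsbg1* at -0.57 and *Dbi* at -0.38. In BOTH without replicate 4, 5 fell, with *Acsbg1* at -0.65 and *Dbi* at -0.44, against 4.66% of all genes.

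Of 12 SREBP2 target genes, which serve cholesterol synthesis and uptake, 8 rose with palmitate and none fell, against 6.65% and 7.6% of all genes, led by squalene epoxidase *Sqle* (0.75 on the log2 scale) and *Cyp51* (0.74). Their median was 0.61, against 0.0048 over all genes. In CON against BSA 8 rose as well, against 7.31%, with a median of 0.38. Against CON, 1 fell in CHREBP, where 0.771% of all genes were called lower, *Hmgcs1* (-0.29), and 3 fell in BOTH, where 3.75% were, led by *Idi1* (-2.80) and *Cyp51* (-0.37). *Idi1* rested on few reads, with 4.49 to 13.9 normalized counts in CON and 0 to 1.92 in BOTH. When BOTH replicate 4 was left out, 4 of the 12 fell, *Cyp51* among them (-0.47), and *Idi1* (-3.36) had no adjusted p because its mean count was under the independent filter.

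Markers of cells moved with palmitate too. Of 12 hepatocyte markers fitted, 2 rose (*Krt18* 0.45, *Krt8* 0.37) and 4 fell, led by *Fgb* (-1.45) and *Alb* (-0.97), against 14.3% of all genes called. Their median log2 fold change was -0.44, against 0.0048 over all genes, whereas the summed level of all 14 was higher in PAL, at 47670 to 50963 normalized counts in BSA and 55691 to 61877 in PAL. A sum is weighted toward its most abundant genes, so that it does not show that most markers rose. Among macrophage markers *Cd14* fell (-0.54) of 3 fitted, with a summed level of 866 to 951 in BSA and 566 to 669 in PAL, and *Adgre1*, *Clec4f*, *Vsig4* and *Marco* were at 0 in all libraries. Fibroblast and stellate markers summed to 5.995 to 28.0 in BSA and 3.02 to 8.95 in PAL, and *Des* fell (-2.59) of 2 fitted. *Col1a2*, *Col3a1*, *Pdgfrb* and *Lrat* were at 0 throughout. Endothelial markers summed to at most 12.7 in any library, and none was fitted. The part of these shifts in the lipogenic changes was not tested.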

How the data were processed

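RNA of 24 AML-12 libraries was measured by BRB-seq. The authors aligned reads to mm10 with STAR, and the submitters' processing notes also name HTSeq, featureCounts and DESeq2. Their versions, the annotation, the use of strand and of molecular identifiers are not given in the sources used here. The deposited values are raw whole-number counts per gene and library, neither normalized nor pooled. 5 summary lines of HTSeq were left out of totals and tests. Reads that were not aligned made up 24.9% to 28.0%, and reads outside genes 5.11% to 6.47%, of a library's entries.

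Groups came from the sample labels. Total gene counts were 5399700 to 11237474 per library, so that 3 counts equalled 0.267 to 0.556 CPM. Across the 36 pairs of replicates, chi-square per degree of freedom over genes was 2.74 to 24.7, and each library was counted as 1 replicate.

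DESeq2 1.42.0 in R 4.3.3 was run on all genes whose counts in the libraries of a fit added up to 25 or more, as 8 libraries with the Wald test for PAL, CON and BSA, and as 16 libraries for the esiRNA groups with Wald contrasts and a likelihood ratio test. p-values are two-sided and Benjamini-Hochberg adjusted over all genes, with a threshold of 0.1. Normalized counts are counts divided by DESeq2 size factors over all 24 libraries, and since only 3′ ends were read, levels were not compared between genes. Alternatives were edgeR 4.0.16 quasi-likelihood, TMM size factors, no low-count filter, no independent filtering, a replicate block, 1 fit of 24 libraries, a threshold of 0.05, and leaving out each library. For list genes and the targeted genes, leaving out BOTH replicate 4 was added after the data were seen.

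The member genes and lists were chosen with earlier results of these data known. All 33 members are named, and values in every library are given for members with an adjusted p under 0.1 and a log2 fold change of at least 0.32 in size with palmitate, for those called between esiRNA groups, and for *Srebf1*, *Fasn* and *Scd1*. List genes are given by counts, by the 2 largest changes in each direction, and for *Mlxipl* and *Arntl*, and some list genes are not reported here. Cell type markers are named where the type of the cells was checked. Coordinates are from GENCODE M21 on GRCm38, the build of mm10, in which 12 members overlap another gene on the same strand and 16 on the other strand. Their counts are uncertain to that extent.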

Additional observations from a re-analysis of the deposited data

Results flagged for a closer look

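In 186 groups of 4 libraries, 11 had a member value whose gap to the nearest other library exceeded Dixon's 95% critical share of the group's range, which is 5.91% where chance gives about 1 in 20. BOTH replicate 4 gave 3 of them. It was the highest for *Elovl5* at 502 normalized counts (others 441 to 448) and for *Mogat2* at 21.1 (others 3.32 to 5.77), and the lowest for *Elovl6* at 84.5 (others 159 to 167). The calls in BOTH without this library are given with the comparisons.

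*Srebf1* was low in BSA replicate 3 at 661 normalized counts, where the other 3 stood at 806 to 829. *Scd1* was high in CHREBP replicate 2 at 129 (others 106 to 110), with all CHREBP libraries still below CON. *Fads2* was high in CON replicate 3 at 932 (others 879.9 to 883), and *Elovl1* was low in CON replicate 2 at 457 (others 550.3 to 563). *Acsl3* was high in BOTH replicate 1 at 373 (others 278 to 295). *Dgat2* was high in CHREBP replicate 4 at 225 (others 164 to 172). *Gpat3*, at the limit of detection, was at 0 in PAL replicate 1 (others 3.35 to 4.02) and at 3.40 in CHREBP replicate 3 (others 4.30 to 4.43).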

How the results depend on the processing

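The 38 member calls were recomputed with edgeR, TMM size factors, the replicate block and 1 fit of 24 libraries, and without each library of the 2 groups compared, giving 456 values, of which 406 stayed past the threshold in the same direction, 50 lost the call and 0 changed sign. For the lower threshold, no low-count filter and no independent filtering, counts of calls were compared. Among the alternatives, the share of all genes called is given only for the fits without BOTH replicate 4. The other counts do not show whether members moved more than other genes did. At an adjusted p under 0.05 BOTH against CON called 3 members instead of 6, PAL against BSA 11 instead of 13 and CON against BSA 12 instead of 14. Leaving out each library gave 11 to 14 calls in PAL against BSA, 1 to 2 in CON against PAL, 11 to 14 in CON against BSA, 2 to 3 in CHREBP against CON, 3 to 11 in BOTH against CON, 0 to 4 in BOTH against CHREBP, 2 to 8 in BOTH against BMAL1, 4 to 12 in the likelihood ratio test and 0 in BMAL1 against CON and the interaction. The highest counts for BOTH and for the likelihood ratio test came without BOTH replicate 4. In 1 fit of all 24 libraries *Acsl4* lost its call against BSA in PAL (adjusted p = 0.166) and CON (0.350), *Mogat2* in PAL (0.106) and *Srebf1* in CON (0.168), and the cause was not tested. That fit added *Elovl7* in CHREBP against CON (log2 fold change -0.25, adjusted p = 0.0824), as did leaving out CHREBP replicate 1 (-0.30, 0.0597), and leaving out CHREBP replicate 3 added *Acsl3* (-0.41, 0.0266). edgeR called *Srebf1* in PAL against BSA (adjusted p = 0.0927) and 4 members in BOTH against CON. Replicate numbers are shared between groups, but the correlation of same-numbered deviations ran from -0.28 to 0.32 and was over 0.1 for every pair in 0 of 8 comparisons, so that the numbers were not taken to pair the libraries. With the replicate block 11 members were called in PAL against BSA, 12 in CON against BSA, 5 in BOTH against CON and 3 in BOTH against BMAL1. The block lost *Scd1* (adjusted p = 0.132) and *Mogat2* (0.170) in PAL, and *Srebf1* (0.198) and *Acsl5* (0.230) in CON against BSA. It lost *Elovl7* in BOTH against CON (0.104) and added *Acsl3* in BOTH against BMAL1 (0.0977). Depth limits *Gpat3*, *Acss2*, *Lpin3* and *Mogat2*, and *Acacb* and *Thrsp* were not testable.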
